A study of Mus musculus with 2 samples.

Results

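The secretoglobins described here are 4 genes, Scgb1a1, Scgb3a1, Scgb3a2 and Scgb1c1, chosen by symbol out of 28692 genes in the count tables of a mouse lung single-cell RNA-seq study. Of 34 genes whose symbol starts with Scgb, 29 had no UMI in either library, and the 30 that are not described further held 1 UMI between them, of Scgb2b2. A UMI, or unique molecular identifier, marks 1 captured RNA molecule. The study sorted Epcam+ cells, the epithelial fraction, from the lungs of C57BL/6 mice by flow cytometry and profiled them with the 10x Genomics droplet method, which counts the 3' ends of RNA, so a longer gene gives no more counts than a shorter one. It compared 1 library labelled Control with 1 labelled NAPH, the agent of the airway injury named in the study's title, and both libraries share strain, tissue and sort. The sources used here do not give the dose of NAPH, the time after injury, the age or the number of mice. With 1 library per group no test between the groups is possible. Intervals are exact 95% Poisson or binomial intervals that cover counting error only, and a difference between the libraries has no replicate check.

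Secretoglobins are small, disulfide-linked proteins secreted onto mucosal surfaces. In the lung the best known is Scgb1a1, or club cell secretory protein, the most abundant product of club cells, the secretory cells that line the airway and divide to repair it. Scgb3a2 is made by club cells and their precursors, Scgb3a1 by mucus-producing and large-airway secretory cells, and Scgb1c1 was first described in the olfactory mucosa. Club cells also make Cyp2f2, a cytochrome P450 enzyme that turns naphthalene into toxic products, and this gene rather than any secretoglobin was used to find the secretory cells.

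The members lie on 4 chromosomes and so are not neighbours. In GENCODE vM21 (GRCm38, the build called mm10) all are protein coding. Scgb1a1 spans 9083636 to 9087958 on the minus strand of chromosome 19, Scgb3a1 49663610 to 49665118 on the plus strand of chromosome 11 and Scgb1c1 140845547 to 140846769 on the plus strand of chromosome 7. No promoter window was at hand for Scgb1a1, and none is shown for Scgb3a2. The 250 bases before the RefSeq starts of Scgb3a1 and Scgb1c1 (RefSeq, GRCm38.p6) are shown, 5' to 3' on the plus strand. They are chr11:49663345-49663594 for Scgb3a1 and chr7:140845315-140845564 for Scgb1c1. Capitals mark matches to CTTGAG, a core bound by NKX2 factors such as Nkx2-1, and to TGTTTNC, a core bound by FOXA factors, each searched on both strands with no overlap between the 2 motifs' matches.
Scgb3a1: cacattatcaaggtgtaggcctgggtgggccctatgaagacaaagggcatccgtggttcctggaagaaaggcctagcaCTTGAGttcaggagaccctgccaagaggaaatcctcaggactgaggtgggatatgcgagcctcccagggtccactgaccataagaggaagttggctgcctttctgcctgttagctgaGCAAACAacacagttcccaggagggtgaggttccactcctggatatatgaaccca
Scgb1c1: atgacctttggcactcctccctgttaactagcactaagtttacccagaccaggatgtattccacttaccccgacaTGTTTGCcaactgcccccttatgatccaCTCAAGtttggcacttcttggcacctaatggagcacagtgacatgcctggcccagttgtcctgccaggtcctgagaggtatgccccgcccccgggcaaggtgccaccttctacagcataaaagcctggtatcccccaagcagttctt
In the Scgb3a1 window CTTGAG stood 172 to 167 bases before the start, and GCAAACA, the FOXA core on the other strand, 55 to 49 bases before it. In the Scgb1c1 window TGTTTGC stood 175 to 169 bases and CTCAAG, the NKX2 core on the other strand, 147 to 142 bases before the start. Of 32817 promoter windows of this length, 13.3% held CTTGAG and 17.8% held TGTTTNC. The CEBP core TTGCNNAA, held by 9.57% of windows, was in neither. These matches describe the letters and are no evidence of binding.

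Control held 3298 cell barcodes with a median of 8303.5 UMIs and NAPH 3685 with a median of 9417, and 14 barcode sequences occurred in both. After filters 3211 and 3572 cells remained. Each cell was gated on its UMIs per 10,000: secretory with Cyp2f2 at 10 or more, ciliated with Foxj1, Ccdc153 and Tmem212 together at 10 or more, and AT2, the surfactant-making alveolar cell, with Sftpc at 500 or more. A cell that passed more than 1 gate was called mixed. Of the rest, any cell with a UMI of the leukocyte gene Ptprc was called Ptprc-positive and the remainder other. A cell's or class's level is its UMIs of a gene per 10,000 of its UMIs. Secretory-gated cells numbered 756 in Control, 23.5% of cells (22.1 to 25.1), and 273 in NAPH, 7.64% (6.79 to 8.56), a ratio of shares of 0.325 (0.282 to 0.373). AT2-gated cells numbered 1790 and 2498, ciliated 83 and 51, mixed 115 and 165, Ptprc-positive 339 and 373 and other 128 and 212. All 9 club cell markers, the gate gene Cyp2f2 among them, were detected in the secretory-gated cells of both libraries. They were also detected in every other class but the ciliated-gated, which held 8. Their summed level in secretory-gated cells was 236 in Control and 233 in NAPH, as shares of all UMIs. By that measure the median gene of these cells was higher in NAPH, as given below. The summed level was 133 and 140 in mixed, 81.9 and 56.4 in ciliated-gated and 47.3 and 41.1 in AT2-gated cells. It was 7.25 and 28.1 in other and 5.14 and 3.77 in Ptprc-positive cells. In secretory-gated cells the level of the gate gene itself was 58.2 (57.9 to 58.5) in Control and 33.7 (33.2 to 34.2) in NAPH. The gate edge was thinly filled in Control, with 4 cells at a Cyp2f2 level of 5 to 10 and 7 at 10 to 20, but held 15 and 65 cells in NAPH, so the NAPH share moved more with the gate.

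Secretory-gated cells carried by far the most secretoglobin RNA, and its make-up differed between the libraries. The 4 genes together made up 62.1% of all UMIs of these cells in Control and 35.6% in NAPH. Scgb1a1 alone was 96.1% of the secretoglobin UMIs in Control and 82.7% in NAPH, Scgb3a2 was 2.40% and 10.3%, Scgb3a1 1.48% and 6.95%, and Scgb1c1 0.0443% and 0.0204%. The order Scgb1a1, Scgb3a2, Scgb3a1, Scgb1c1 held in both libraries, with intervals that did not overlap between neighbours. In single cells, Scgb1a1 was the member with the most UMIs in 756 of 756 Control cells. In NAPH it led in 246 of 273 cells, Scgb3a2 in 24 (8.79%) and Scgb3a1 in 3. In Control 0 of 756 cells were led by either, and 3 counts, taken as the limit that a count of 0 allows, would be a share of 0.397%. The 24 NAPH cells led by Scgb3a2 had a median Scgb3a2 level of 214, from 21.8 to 1238, and a median Scgb1a1 level of 33.0.

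UMIs per 10,000 are shares, so a lower share of Scgb1a1, which was 59.7% of the UMIs of Control secretory-gated cells, comes with higher shares of other genes. Among 9438 genes with at least 50 UMIs in secretory-gated cells, the median gene was 1.81-fold higher in NAPH (log2 0.86), so each ratio is given per all UMIs and then relative to that median gene. Per all UMIs, Scgb3a1 and Scgb3a2 were at least 1.5 times higher in NAPH, as were 73.9% of the genes, and Scgb1a1 and Scgb1c1 at least 1.5 times lower, as were 1.55%. Relative to the median gene, 0 of the 4 were at least 1.5 times higher, against 10.6% of genes, and Scgb1a1 and Scgb1c1 were at least 1.5 times lower, against 10.8%.

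**Figure D1:**
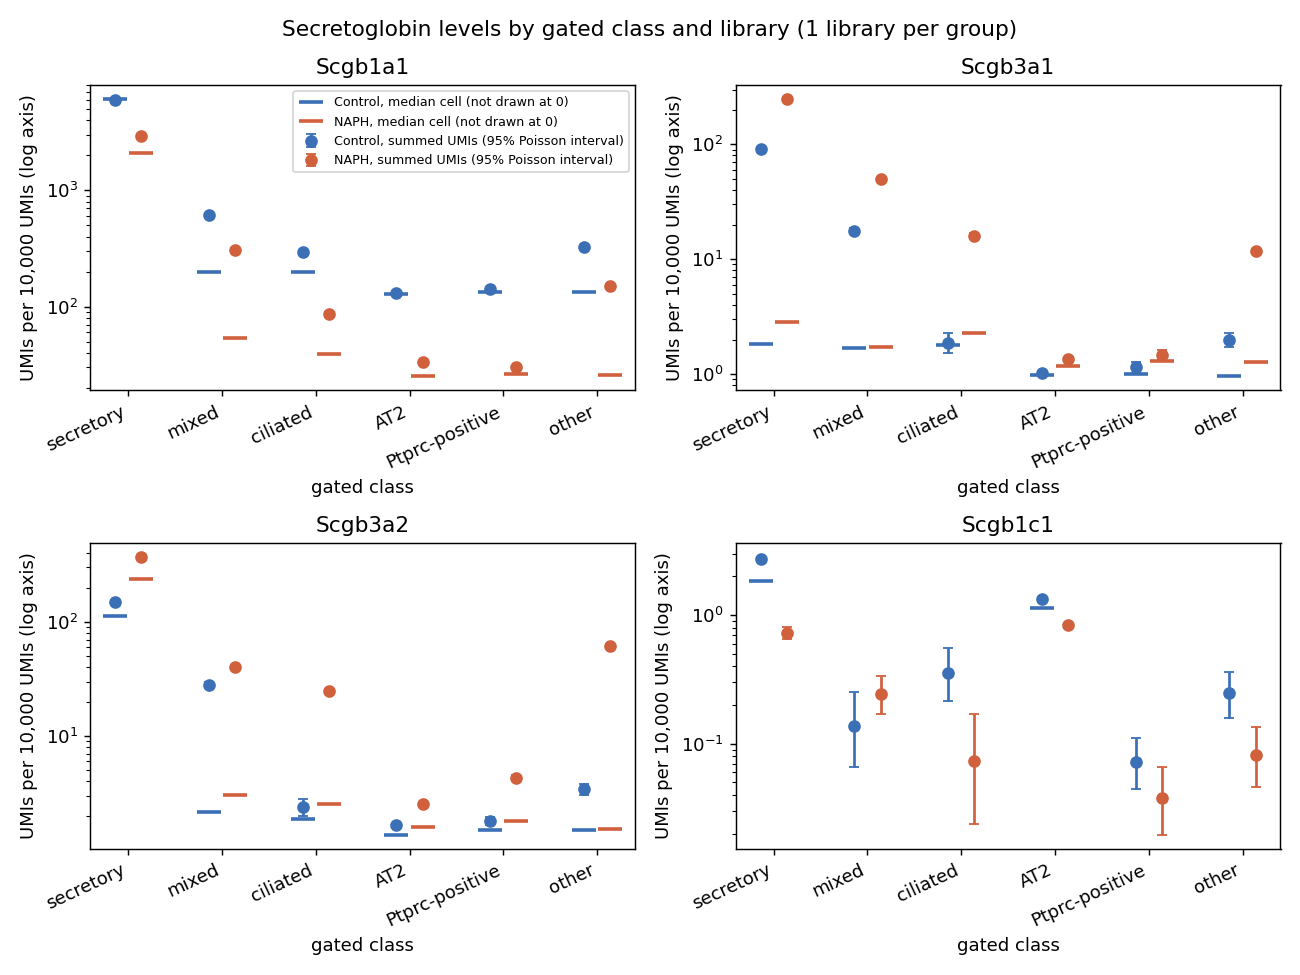
Levels of the 4 secretoglobins (UMIs per 10,000 UMIs, log axes) in 6 gated classes of Control (blue) and NAPH (orange), 1 library each. Points are summed UMIs with 95% Poisson intervals and dashes the median cell. Secretory-gated cells stood highest except for Scgb1c1 in NAPH, where AT2-gated cells were at 0.835 and secretory-gated cells at 0.726.

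Scgb1a1, the club cell protein, was at a level of 5966 (5962 to 5969) in Control and 2948 (2943 to 2953) in NAPH secretory-gated cells, a ratio of 0.494 (0.493 to 0.495), or 0.273 relative to the median gene. The distributions differed in shape. Control cells lay in a narrow band, with a median of 6112 and the 5th percentile at 3918, whereas NAPH cells had a median of 2072 and a 5th percentile of 24.4. The lowest and highest cells were 84.6 and 8267 in Control and 15.4 and 7317 in NAPH, so the ranges overlapped. RNA from broken cells enters every droplet, and Ptprc-positive cells, leukocytes that are not known to make secretoglobins, measured this free RNA at a median Scgb1a1 level of 133 in Control and 26.2 in NAPH. Set against the 99th percentile of Ptprc-positive cells, 746 of 756 Control cells lay above it and 216 of 273 NAPH cells (79.1%, 73.8 to 83.8). The 57 NAPH cells that did not were gated on a Cyp2f2 level of 35.7, close to the 33.5 of the 216 others. Of these 57, 46 held a UMI of the basal cell genes Krt5, Krt14, Krt15, Krt17 or Trp63, as did 32 of the 216 others, and 13 passed a Krt5 plus Krt14 gate of 5. Those 13 cells had a Scgb1a1 level of 27.6 (24.7 to 30.8), within reach of free RNA. In Control all 10 cells not above the range held such a basal UMI, as did 49 of the 746 others, and 7 of the 10 passed the Krt5 plus Krt14 gate. Without cells of that gate in either library the ratio was 0.505. Median depth of the secretory-gated cells was 29243 UMIs in Control and 17409 in NAPH, and summed levels went from 0.230 to 2.47 for 5 basal markers (Krt14 at 0 in Control), from 1.39 to 8.23 for 5 AT1 markers and from 109 to 240 for 10 AT2 markers. These sums are per all UMIs, by which the median gene was 1.81-fold higher in NAPH. The AT1 gene Ager, whose gate does not mark AT1 cells here, was at 0.937 in Control and 6.88 in NAPH. Sftpa1 and Sftpb, listed below among club and goblet cell products, were at 47.3 and 21.3 in Control and 108 and 35.7 in NAPH. The sums therefore do not by themselves mark alveolar cells. The part of depth and of these marker sums in the differences was not tested.

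Scgb3a2, at 43764289 to 43767399 on the plus strand of chromosome 18, is the secretoglobin shared by club cells and their precursors. It was at 149 (149 to 150) in Control and 369 (367 to 370) in NAPH secretory-gated cells. The ratio was 2.47 (2.45 to 2.48) and 1.36 relative to the median gene. It was broadly spread, with medians of 114 and 238, 5th percentiles of 13.8 and 0.916 and highest cells of 593 and 1401. The free RNA range was exceeded by 96.2% (94.5 to 97.4) of the Control cells and by 82.1% (77.0 to 86.4) of the NAPH cells. NAPH cells were thus more spread at both ends. Upk3a, a uroplakin that marks a variant club cell, reached a level of 2 in 7 Control (0.926%) and 64 NAPH (23.4%) secretory-gated cells. This gate is per all UMIs, of which the 4 secretoglobins were 62.1% in Control and 35.6% in NAPH. The same level is thus harder to reach in Control. In NAPH these 64 cells had Scgb3a2 at 509 (505 to 512), against 315 (313 to 317) in the other 209, while their Scgb1a1 was lower, at 2583 against 3087. In Control the 7 Upk3a cells, at 157 (151 to 164), stood close to the 149 of the rest.

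**Figure D2:**
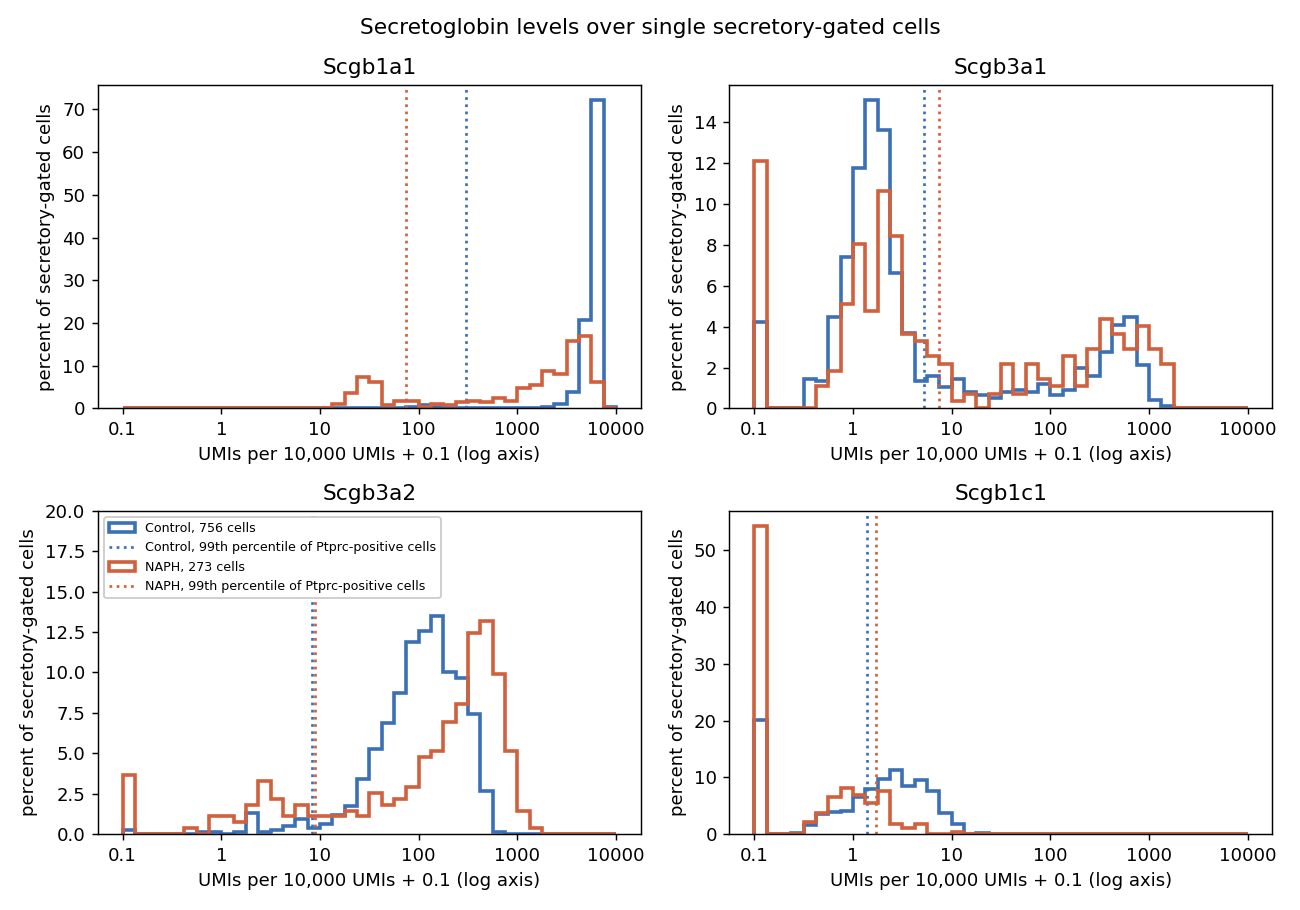
Percent of secretory-gated cells (756 Control, blue, and 273 NAPH, orange) by level of each secretoglobin, in UMIs per 10,000 UMIs plus 0.1 on log axes. Dotted lines are the 99th percentiles of Ptprc-positive cells. Scgb1a1 formed 1 narrow peak in Control and a long tail with a second group at the free RNA level in NAPH, and Scgb3a1 was split in both libraries.

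Scgb3a1, the secretoglobin of mucous cells, rested on a minority of cells in both libraries. Its summed level was 91.9 (91.5 to 92.4) in Control and 248 (246 to 249) in NAPH, while the median cell was at 1.83 and 2.84, near the free RNA medians of 1.0 and 1.30. Cells above the free RNA range were 29.4% (26.1 to 32.8) of Control and 38.5% (32.7 to 44.5) of NAPH secretory-gated cells. A level of 100, chosen after the values were seen, parted 145 Control cells (19.2%, 16.4 to 22.2) and 76 NAPH cells (27.8%, 22.6 to 33.6) from the rest. These cells held 95.7% and 97.2% of the Scgb3a1 UMIs of the class, and 38 and 22 cells lay at 50 to 200. Their levels were 501 and 669 against 4.8 and 11.0 outside, a direction that the cut itself fixes. The ratio of summed levels was 2.69 (2.68 to 2.71), or 1.49 relative to the median gene, but no direction can be given for Scgb3a1 apart from its share. Per non-secretoglobin UMIs it was 1.59 on summed UMIs, 0.978 for the median cell and 0.829 when every cell was thinned to 3500 UMIs and gated again. Scgb3a2 kept its direction in these settings, at 1.45, 1.28 and 1.07. The median cell's Scgb3a1 level lay below the 99th percentiles of Ptprc-positive cells, 5.20 in Control and 7.29 in NAPH. Its ratio therefore cannot decide a direction for the cells above that range. Thinned without gating again, Scgb3a1 per all UMIs was at 98.3 in Control and 177 in NAPH, against 98.6 and 150 when gated again.

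Many of the Scgb3a1-high cells held Bpifb1, an antimicrobial protein of airway goblet cells, at 10 or more: 74.5% in Control and 60.5% in NAPH. Of 116 Control and 52 NAPH cells with Bpifb1 at 10 or more, 93.1% and 88.5% had Scgb3a1 at 100 or more. Scgb3a2 was also higher in the Scgb3a1-high cells, at 301 against 117 outside in Control and at 518 against 285 in NAPH. Scgb1a1 was lower inside than outside in Control, at 4966 and 6179, but not in NAPH, at 3108 and 2858. Cells with the AT1 gene Ager at 10 or more per all UMIs, 7 in Control (0.926%) and 74 in NAPH (27.1%), had little Scgb3a1. In NAPH they were at 8.88 (8.37 to 9.40) against 327 (325 to 329) in the other 199 cells, but held Scgb3a2 at 304 against 390 and Scgb1a1 at 2613 against 3059. The Ager gate does not mark AT1 cells here. It was also passed by 948 AT2-gated cells of Control (53.0%) and 1762 of NAPH (70.5%).

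**Figure D3:**
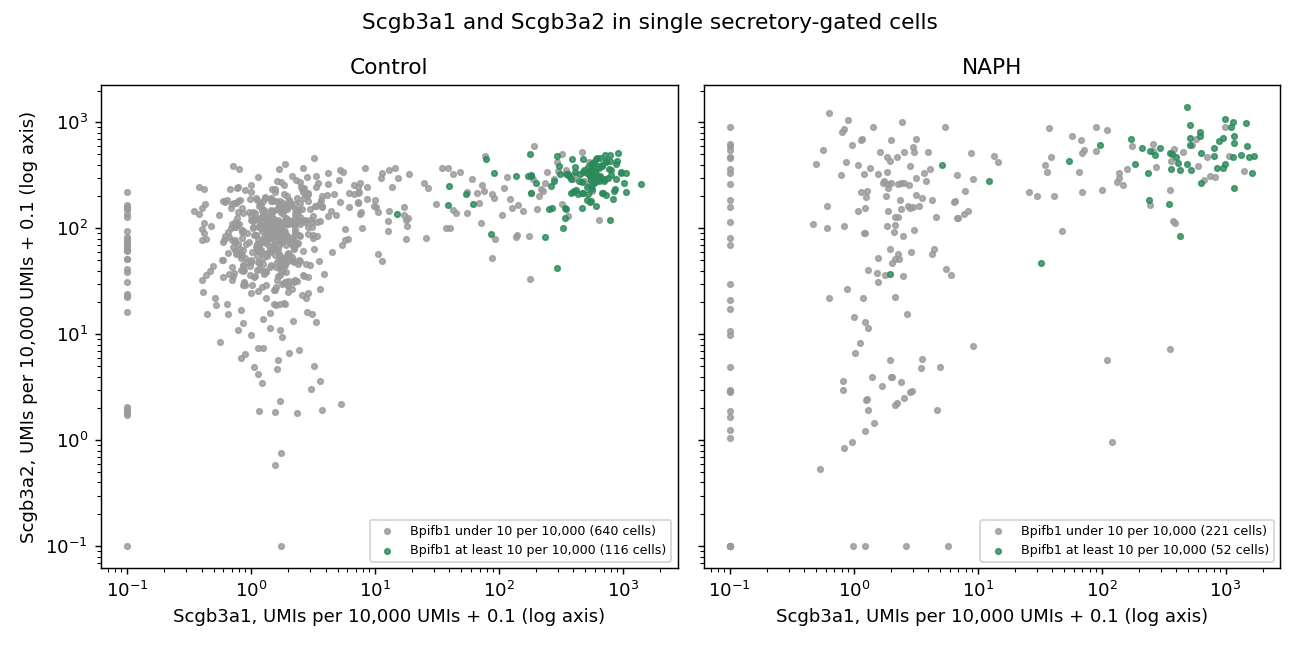
Scgb3a2 against Scgb3a1 in single secretory-gated cells (UMIs per 10,000 UMIs plus 0.1, log axes) of Control (left) and NAPH (right). Green cells have Bpifb1 at 10 or more per 10,000 (116 and 52 cells) and sit mostly at the right, where Scgb3a1 is 100 or more and Scgb3a2 is high.

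Over secretory-gated cells, log levels (per non-secretoglobin UMIs) of Scgb3a1 and Scgb3a2 went together in both libraries, with Pearson r of 0.49 in Control (n = 756) and 0.53 in NAPH (n = 273). Scgb1a1 and Scgb3a2 had r of 0.38 and 0.70, but Spearman rho was -0.17 in Control and 0.58 in NAPH. Scgb1a1 and Scgb3a1 had r of -0.12 and 0.44. Scgb3a1 and Scgb1c1 had r of -0.54 in Control and 0.09 in NAPH. Cells of a library share its depth range and free RNA, and these values are descriptions. Among 4030 genes with a UMI in at least 20% of secretory-gated cells of both libraries, the genes most like Scgb1a1 were Hp, which encodes haptoglobin (r of 0.80 in Control and 0.79 in NAPH), and then Npc2, Sftpb, Ldhb and Mgst1. The most unlike were Gsn, Perp and F3. For Scgb3a1 the most like were Muc5b, the main airway gel-forming mucin (0.86 and 0.81), Bpifb1, Pglyrp1, Lypd2 and Chad, and the most unlike were Tmsb4x, Crip2 and Ager. For Scgb3a2 they were Mgst1, a microsomal glutathione transferase (0.67 and 0.75), Wfdc2, Chad, Cxcl17 and Bpifb1, and the most unlike Bcam, Ptma and Tinagl1.

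Scgb1c1 was the rarest member and the one whose spread over the gated classes differed most from those of the other members. In secretory-gated cells it was at 2.75 (2.68 to 2.82) in Control and 0.726 (0.655 to 0.803) in NAPH. The ratio was 0.264 (0.237 to 0.293) and 0.146 relative to the median gene, the lowest of the 4. Cells with at least 1 Scgb1c1 UMI made up 79.9% and 45.8%, or 47.2% (43.6 to 50.9) and 17.6% (13.3 to 22.6) when each cell was thinned to 3500 UMIs. In Control the gene was higher outside the Scgb3a1-high cells, at 3.24, than within them, at 0.464. In NAPH these levels were 0.777 and 0.636. In Bpifb1 cells it was 0.251 (0.196 to 0.315) in Control and 0.542 (0.424 to 0.683) in NAPH. All of these levels were above those of Ptprc-positive cells, 0.0719 in Control and 0.0380 in NAPH. The free RNA range was exceeded by 59.0% (55.4 to 62.5) of Control and 12.8% (9.09 to 17.4) of NAPH secretory-gated cells. For AT2-gated cells these shares were 42.5% and 18.7%.

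Scgb1c1 was also found in AT2-gated cells, well above its free RNA level. There its level was 1.33 (1.27 to 1.39) in Control and 0.835 (0.80 to 0.872) in NAPH, against 0.0719 (0.0445 to 0.110) and 0.0380 (0.0197 to 0.0665) in Ptprc-positive cells. The ratio between libraries in AT2-gated cells was 0.630 (0.592 to 0.671) per all UMIs. How this ratio stood among all genes of AT2-gated cells was not examined. A UMI was seen in 57.8% of Control and 48.5% of NAPH AT2-gated cells, at median depths of 7673.5 and 9532.5 UMIs, and in 5.90% and 3.22% of Ptprc-positive cells, at 8102 and 7946. With every cell thinned to 3500 UMIs the AT2 shares were 34.5% (32.3 to 36.8) and 23.0% (21.4 to 24.7), and the Ptprc-positive shares 1.47% and 1.88%. AT2-gated cells held 24.5% of all Scgb1c1 UMIs in Control and 82.1% in NAPH, and secretory-gated cells 74.5% and 15.1%. These shares also follow the size of each class. UMIs of all genes were 14118696 in Control and 24623551 in NAPH for AT2-gated cells, and 20724685 and 5205876 for secretory-gated cells. AT2-gated cells held 1872 and 2057 Scgb1c1 UMIs.

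Within AT2-gated cells Scgb1c1 was uneven. Cells with the small adaptor gene Bex2 at 2 or more had a level of 1.54 (1.46 to 1.63) in Control and 1.09 (1.01 to 1.18) in NAPH, against 0.943 (0.860 to 1.03) and 0.747 (0.708 to 0.788) without it. Bex2 cells were 1141 of 1790 in Control and 652 of 2498 in NAPH, but the level was lower in NAPH both with and without Bex2. Cells with Lrg1, which encodes an acute-phase glycoprotein, at 10 or more numbered 73 in Control and 1420 in NAPH. In NAPH they had 0.784 (0.739 to 0.830), against 0.912 (0.854 to 0.974) in the rest, and in Control 1.54 (1.25 to 1.87) against 1.32 (1.25 to 1.38). The Bex2 and Lrg1 gates were chosen after the data were seen. Cells with the transitional genes Areg and Sprr1a together at 10 or more, 71 in NAPH, were lower, at 0.551 (0.392 to 0.753) against 0.844 (0.807 to 0.881), and the 10 such cells in Control held 1 UMI. Cycling cells, with Mki67 and Top2a together at 2 or more, had 0.653 (0.348 to 1.12) in 17 Control cells and 0.421 (0.230 to 0.706) in 25 NAPH cells.

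For the other 3 members AT2-gated and Ptprc-positive cells gave nearly the same low levels. Scgb1a1 had a median of 127 in AT2-gated and 133 in Ptprc-positive cells of Control, and of 25.1 and 26.2 in NAPH. Scgb3a2 had medians of 1.36 and 1.49 in Control and 1.59 and 1.82 in NAPH, and Scgb3a1 of 0.986 and 1.0 and of 1.18 and 1.30. The free Scgb1a1 level was thus lower in NAPH, with a ratio of summed levels of 0.215 (0.210 to 0.220) in Ptprc-positive cells. The members were also set against each other within each class. Per 100 Scgb1a1 UMIs Scgb3a2 had 1.25 (1.20 to 1.30) in AT2-gated and 1.28 (1.17 to 1.40) in Ptprc-positive cells of Control. In NAPH these were 7.66 and 14.1, but 1 Ptprc-positive cell held 713 of the 1349 Scgb3a2 UMIs. Without the top cell of each class the values were 6.45 and 7.53. In secretory-gated cells they were 2.50 in Control and 12.5 in NAPH. Scgb3a1 had 0.769 (0.729 to 0.810) and 0.812 (0.727 to 0.904) in AT2-gated and Ptprc-positive cells of Control, but 4.10 (3.96 to 4.25) and 4.85 (4.41 to 5.33) in NAPH, which do not overlap, and 1.54 and 8.40 in secretory-gated cells. For Scgb1c1 the classes stood far further apart, at 1.01 (0.960 to 1.05) per 100 Scgb1a1 UMIs in AT2-gated cells against 0.0511 (0.0316 to 0.0781) in Ptprc-positive cells of Control, and at 2.51 (2.40 to 2.63) against 0.126 (0.0650 to 0.220) in NAPH. In secretory-gated cells it was 0.0461 and 0.0246. Whether free RNA comes from 1 source was not tested.

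**Figure D4:**
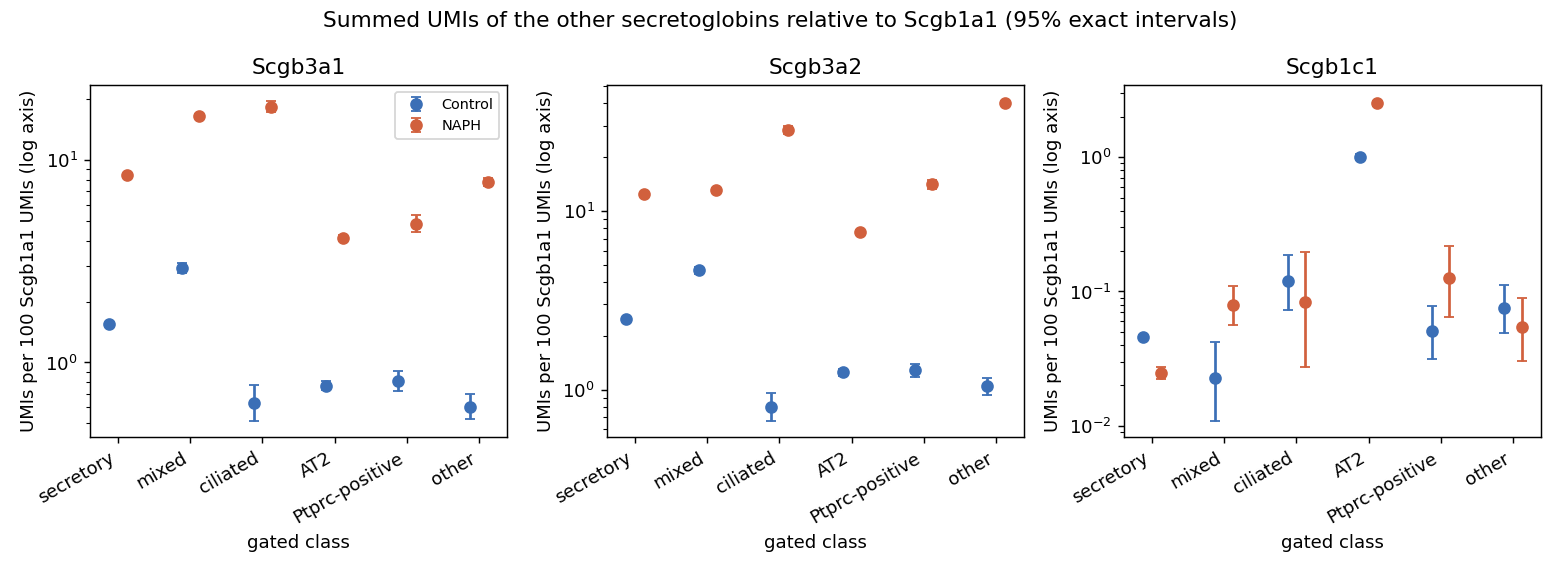
UMIs of Scgb3a1, Scgb3a2 and Scgb1c1 per 100 Scgb1a1 UMIs (log axes, 95% exact intervals) in 6 gated classes of Control (blue) and NAPH (orange). AT2-gated cells stand apart for Scgb1c1, at 1.01 and 2.51. In NAPH the other class stands highest for Scgb3a2, at 40.4, though 17 of its 212 cells had Scgb3a2 above the free RNA range.

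Ciliated and mixed cells carried less Scgb1a1 than secretory-gated cells, but more per UMI than Ptprc-positive cells. The median Scgb1a1 level was 198 in ciliated-gated, 197 in mixed and 133 in Ptprc-positive cells of Control, and 39.3, 54.1 and 26.2 in NAPH. Median depths were 5370, 5333 and 8102 UMIs in Control and 10511, 7907 and 7946 in NAPH. As UMIs per cell the medians were 108, 111 and 110 in Control and 41, 41 and 21 in NAPH. Summed levels were 295 and 87.0 in ciliated-gated and 608 and 304 in mixed cells. Without the top cell of each class they were 265 and 58.3 in ciliated-gated and 448 and 221 in mixed cells. Of the mixed cells, 105 of 115 in Control and 149 of 165 in NAPH passed both the ciliated and the secretory gate, so they held Cyp2f2 by their gate. Scgb1a1 was above the free RNA range in 16 of 115 (13.9%, 8.17 to 21.6) and 55 of 165 mixed cells (33.3%, 26.2 to 41.1), and in 16 of 83 and 6 of 51 ciliated-gated cells. The summed Scgb3a2 level of ciliated-gated cells, 2.37 in Control and 24.6 in NAPH, turned on 1 NAPH cell with 1272 of 1685 UMIs, and was 6.50 (5.89 to 7.16) without it. Of Scgb3a1 in mixed Control cells, 1185 of 1283 UMIs came from 1 cell. Among other cells of NAPH, 17 of 212 had Scgb3a2 above the free RNA range, and the class level was 61.0 with a median of 1.54 and 50.3 without its top cell. In Control 3 of 128 did, and the level was 3.42. The other class also held immune cell RNA. Its 5 immune markers summed to 40.1 in Control and 30.7 in NAPH, against 51.2 and 53.1 in Ptprc-positive cells. The 4 other cells of NAPH with Upk3a had Scgb3a2 at 651 (631 to 671), and 8 with the neuroendocrine gene Calca at 50 or more had 1.94 (0.929 to 3.56), at the free RNA level.

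Among 18 listed regulators of secretoglobin genes or of secretory fate, 17 were measured in secretory-gated cells. Per all UMIs 13 were at least 1.5 times higher in NAPH and 0 lower, beside 73.9% and 1.55% of all genes, with a median log2 ratio of 0.87 beside 0.86. Relative to the median gene 2 were higher, 1 lower and 14 between, beside 10.6% and 10.8% of all genes higher and lower. The regulators as a list thus stood close to the background. The highest relative ratios were those of Foxa3 at 2.30 (1.47 to 3.62, on 41 and 43 UMIs), Spdef, a regulator of goblet cell differentiation, at 1.62 (1.14 to 2.30), Xbp1 at 1.29 and Klf5 at 1.27. Among the lowest were Notch2, a receptor that favours secretory over ciliated fate, at 0.607 (0.512 to 0.716), its target Hes1 at 0.726 and Foxa2 at 0.820. Nkx2-1, the lung lineage factor, was at 1.09 (1.0 to 1.19).

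Of 20 listed products that club and goblet cells secrete beside secretoglobins, 11 were at least 1.5 times higher per all UMIs and 0 lower, with a median log2 ratio of 0.96, beside the 73.9% and 1.55% of all genes. Relative to the median gene 9 were higher and 5 lower, with a median of 0.11, beside 10.6% and 10.8% of all genes. The highest were Dmbt1, with 1 UMI in Control and 56 in NAPH (123-fold, 21.2 to 4944), the mucin Muc5ac at 11.2 (8.56 to 14.9), the protease inhibitor Slpi at 9.76 (7.19 to 13.4) and Agr2, a mucin-folding disulfide isomerase, at 7.62 (6.75 to 8.62). For Slpi the level in Ptprc-positive cells, 2.15 and 0.653, was above that in secretory-gated cells, 0.0251 and 0.444. The lowest were Lypd2 at 0.536 (0.514 to 0.558), the antimicrobial lectin Reg3g at 0.576, complement C3 at 0.583 and Chad at 0.643. Relative to the median gene, Scgb1a1 at 0.273 and Scgb1c1 at 0.146 were lower than any of these 20, and Scgb3a1 at 1.49 stood below Muc5b, the gene most like it, at 1.64 (1.56 to 1.73).

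**Figure D5:**
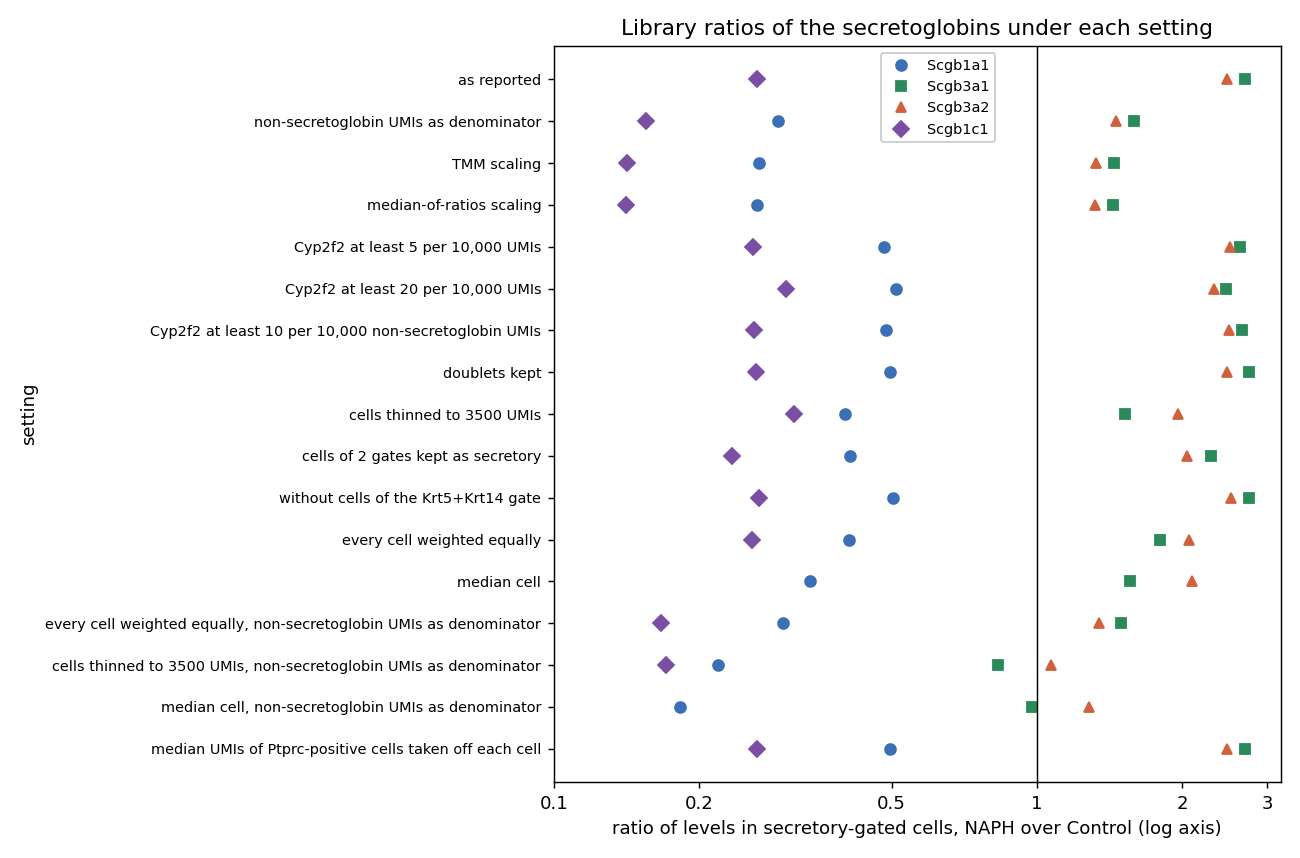
Ratio of levels in secretory-gated cells, NAPH over Control (log axis), for each secretoglobin under each setting, with the line at 1 for no difference. Scgb1a1 and Scgb1c1 lay below 1 and Scgb3a2 above 1 in every setting shown, while Scgb3a1 ran from 0.829 to 2.75.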

How the data were processed

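The authors deposited raw counts, UMIs per gene and barcode, for 1 Control and 1 NAPH library. Per the submitters' processing notes they were made with Cell Ranger against mm10. The sources used here do not give its version, the cell-calling rule or whether animals were pooled. Totals were 41699755 UMIs in Control and 38497783 in NAPH.

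Barcodes under 500 genes, under 1000 UMIs or over 20% mitochondrial UMIs were left out (0 and 4). Scrublet called 0.243% and 0.0815% of cells, which is too few to trust, so the top-scoring cells were removed at 0.8% per 1000 barcodes (87 and 109 cells). Cells were gated as the report states, and UMIs were summed per class and library. Ratios have exact conditional Poisson intervals and shares Clopper-Pearson intervals. TMM scaling used edgeR 4.0.16 in R 4.3.3, and the rest scanpy 1.11.5 and Python 3.11.15. Correlations used log2 of UMIs per 10,000 non-secretoglobin UMIs plus 1. The correlation and ratio steps were tested on simulated data. The genes compared with the members needed 50 UMIs over both libraries. Of the listed regulators, 1, Cebpd, was not analysed here.

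Named genes are the members, up to 4 highest and 4 lowest of each list (50 or more UMIs), and the 5 genes most like and 3 most unlike Scgb1a1, Scgb3a1 and Scgb3a2 by the weaker r of the 2 libraries, ribosomal and mitochondrial genes left out. Nkx2-1, Muc5b, Cyp2f2 and gate genes are named beside them. Of the genes that this rule names, 1 is not reported here. The members, gates and lists were chosen with earlier results of these data known. Alternatives changed the gate, scaling, doublets, thinning and cell weighting.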

Additional observations from a re-analysis of the deposited data

How the results depend on the processing

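With 1 library per group, each setting only moves a value. For the ratios and shares below, moves beyond the counting interval are given. In the order Scgb1a1, Scgb3a1, Scgb3a2 and Scgb1c1, the NAPH over Control ratio in secretory-gated cells was 0.291, 1.59, 1.45 and 0.155 per non-secretoglobin UMIs, 0.265, 1.45, 1.33 and 0.142 with TMM scaling and 0.264, 1.44, 1.32 and 0.141 with median-of-ratios scaling. It was 0.510, 2.46, 2.33 and 0.303 with Cyp2f2 at 20 or more, 0.401, 1.52, 1.96 and 0.314 with cells thinned to 3500 UMIs and gated again, and 0.410, 2.29, 2.05 and 0.233 with cells of 2 gates kept as secretory. For the first 3 members it was 0.482, 2.63 and 2.50 with Cyp2f2 at 5 or more, 0.486, 2.65 and 2.49 with that gate per non-secretoglobin UMIs, 0.408, 1.80 and 2.06 with every cell weighted equally, and, chosen after seeing the data, 0.505, 2.75 and 2.52 without Krt5 plus Krt14 cells and 0.339, 1.56 and 2.09 for the median cell. With doublets kept Scgb1a1 was 0.495 and Scgb3a1 2.75, and with free RNA taken off Scgb1a1 was 0.496.

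Settings chosen after seeing the data that joined non-secretoglobin UMIs with another choice gave, for the 4 members, 0.299, 1.49, 1.35 and 0.167 with every cell weighted equally and 0.218, 0.829, 1.07 and 0.171 with thinning, and for the first 3 members 0.182, 0.978 and 1.28 for the median cell. So Scgb3a1 fell below 1 in the last 2, and the cause was not tested. Its median cell lay within the free RNA range in both libraries. Thinned Scgb3a1 per all UMIs was 98.3 in Control and 177 in NAPH on the same 756 and 273 cells. Gated again, it was 98.6 and 150 on 753 and 260 cells. The secretory share of NAPH was 5.82% with Cyp2f2 at 20 or more, and with cells of 2 gates kept it was 12.2% against 27.0% in Control. With doublets kept, Scgb3a1 and Scgb3a2 per 100 Scgb1a1 UMIs in AT2-gated cells were 0.850 and 1.31 in Control, and Scgb3a2 7.92 in NAPH. Of 48 class levels, 18 left their interval and 8 moved by over 1.5 times with Sftpc at 1000 or more, 20 and 3 with doublets kept and 30 and 12 with every cell weighted equally. The largest move, by 15.3 times, was that of Scgb3a1 in mixed NAPH cells, from 50.2 to 3.29 with Sftpc at 1000 or more. Of 24 like and unlike genes, 15 were shared under Spearman's rho. Per all UMIs a 2-fold threshold was passed by 36.7% of genes upward and 0.784% downward. At 1.5-fold, 12.2% were lower with genes of at least 1 UMI, and relative to the median gene 10.6% were higher and 10.8% lower. No paired analysis was possible because the labels carry no replicate numbers and each group is 1 library, which can also not be left out. Depth limits Scgb1c1 in single cells, since 1 UMI in a cell of median depth is about its level in AT2-gated cells.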

Other observations

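Cyp2f2 was also found in ciliated-gated cells, which by the rule hold it below the secretory gate. Its summed level there was 4.79 (4.22 to 5.41) in Control and 2.90 (2.51 to 3.33) in NAPH, against 0.982 and 0.247 in Ptprc-positive cells. Summed Scgb1a1 in the same cells was 295 and 87.0, against 141 and 30.2. Without the top cell of each class the NAPH values were 58.3 and 26.9. In Control the median Scgb1a1 UMIs per cell were 108 in ciliated-gated and 110 in Ptprc-positive cells, at median depths of 5370 and 8102. In NAPH they were 41 and 21, at 10511 and 7946. Mixed cells had Cyp2f2 at 23.1 and 21.7, which the gate fixed for most of them, and summed Scgb1a1 at 608 and 304.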
